A study of Mus musculus with 14 samples.

Results

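The genes described here are 10 direct targets and feedback genes of canonical Wnt signalling, followed in embryoid bodies, the aggregates that mouse embryonic stem cells form as they differentiate. They are the transcription factor genes Lef1, Tcf7 and Sp5, the intracellular inhibitor genes Axin2 and Nkd1, the secreted inhibitor genes Dkk1 and Notum, the membrane ubiquitin ligase genes Rnf43 and Znrf3, and the receptor gene Lgr5. They were chosen by name from textbook knowledge of the pathway, with earlier results of these data known. All 10 were found among the 36047 genes listed in each deposited table. All 10 also passed the filter on low counts in both tables, which keeps genes with enough reads in at least 1 group.

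Canonical Wnt signalling turns on the stability of beta-catenin. Without a Wnt ligand, a complex built on Axin marks beta-catenin for destruction; when a ligand engages a Frizzled receptor and its LRP co-receptor, the complex is held at the membrane and beta-catenin enters the nucleus, where it activates genes through TCF and LEF factors. Many of these genes encode inhibitors, so the pathway dampens itself, and their transcripts are widely used as a readout of its activity. In the early embryo the pathway is needed for the primitive streak and for mesoderm, and it must later be restrained for heart muscle to form.

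RNA was sequenced from embryoid bodies of a Foxk1 knockout (KO) line and of the iHA-Foxk1 line, which served as control, both grown in mesoderm-favouring medium. The groups were Foxk1 KO and control at day 3, Foxk1 KO and control at day 5, and Foxk1 KO with IWR1, Foxk1 KO and control at day 10. Foxk1 encodes a forkhead transcription factor. IWR1 is a small molecule that stabilises Axin proteins; the labels used here state neither its dose nor when it was added. Each of the 7 groups had 2 libraries, 14 in all. There was a single line of each genotype, so the loss of Foxk1 and other differences between the lines cannot be told apart. The stem cells had been grown on a feeder layer of fibroblasts, which a plating step was meant to remove before differentiation. The control titles of days 3 and 5 add the letters ND, whose meaning is left unread here. The labels do not say whether the libraries of a group are separate cultures, so p-values measure the spread between these libraries, which may be technical.

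The libraries held 10574194 to 11621032 counts at days 3 and 5 and 34466708 to 52747273 counts at day 10. Levels are given in CPM, the count of a gene relative to the scaled library size. In 1 library, 3 counts were worth 0.254 to 0.298 CPM at days 3 and 5, and 0.0621 to 0.0827 CPM at day 10. Foxk1 itself was lower in KO, by a log2 fold change of -2.32 ± 0.09 at day 3 (adjusted p = 2.22e-07) and of -1.90 ± 0.09 at day 5 (adjusted p = 4.91e-07). At day 10 Foxk1 was at 26.4 and 52.9 CPM in the libraries labelled Foxk1 KO with IWR1, 71.3 and 41.8 CPM in those labelled Foxk1 KO and 65.0 and 80.1 CPM in control, and no difference passed the test. The labels do not say which part of Foxk1 is deleted. Directions at day 10 therefore rest on the labels. Fold changes are log2 values ± SE. Each p comes from the quasi-likelihood test of edgeR and was adjusted by the Benjamini-Hochberg method across every gene tested, 14430 at days 3 and 5 and 17022 at day 10, with a threshold of 0.05.

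The start regions of 4 of the genes are shown because TCF and LEF proteins bind DNA at CTTTGA or close variants of it. RefSeq promoter windows of 300 bases, 250 before the annotated start and 50 from it, were given for 7 of the 10 genes (12 windows, build GRCm38.p6), and not for Notum, Znrf3 and Lgr5. CTTTGA, read on either strand (TCAAAG on the other), occurred in 3 of the 12 windows, those of Sp5, Dkk1 and the most downstream of 4 Lef1 starts. The same letters occurred in 16% of all 32851 windows of this length, so a match is a description of the letters only. The windows are written 5′ to 3′ on the strand of the gene, with each match in capitals.
Sp5, chr2:70474673-70474972, plus strand: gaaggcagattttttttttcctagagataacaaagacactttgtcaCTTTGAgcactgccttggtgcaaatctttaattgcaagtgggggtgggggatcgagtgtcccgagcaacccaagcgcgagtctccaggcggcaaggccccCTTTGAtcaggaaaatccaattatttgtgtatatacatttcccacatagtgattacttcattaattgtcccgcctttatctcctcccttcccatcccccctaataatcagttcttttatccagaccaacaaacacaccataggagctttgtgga
Dkk1, chr19:30549447-30549746, minus strand: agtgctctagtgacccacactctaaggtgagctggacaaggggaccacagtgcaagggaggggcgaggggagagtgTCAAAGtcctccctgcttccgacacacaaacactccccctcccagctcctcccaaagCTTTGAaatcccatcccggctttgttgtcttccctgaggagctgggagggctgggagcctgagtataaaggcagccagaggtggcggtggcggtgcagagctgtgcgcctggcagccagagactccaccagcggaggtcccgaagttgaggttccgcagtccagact
Lef1, chr3:131156044-131156343, plus strand, at a start inside the annotated gene: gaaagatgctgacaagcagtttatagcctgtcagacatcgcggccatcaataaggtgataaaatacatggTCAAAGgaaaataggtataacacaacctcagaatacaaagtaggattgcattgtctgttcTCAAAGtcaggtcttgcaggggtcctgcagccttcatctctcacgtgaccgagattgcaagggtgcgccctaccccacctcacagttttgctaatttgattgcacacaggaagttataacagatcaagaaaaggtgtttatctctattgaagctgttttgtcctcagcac
Axin2, chr11:108920099-108920398, plus strand, with no match: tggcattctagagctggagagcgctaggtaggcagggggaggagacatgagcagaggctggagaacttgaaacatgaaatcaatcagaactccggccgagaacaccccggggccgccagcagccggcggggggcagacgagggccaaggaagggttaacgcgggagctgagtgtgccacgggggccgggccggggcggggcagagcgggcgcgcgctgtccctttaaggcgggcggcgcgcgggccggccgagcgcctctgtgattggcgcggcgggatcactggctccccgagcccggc
The matches in Sp5 began at positions -204 and -104 from the start site, those in Dkk1 at -174 and -117, and those in Lef1 at -180 and -120. The longer form CTTTGAA, which occurred in 5.135% of all windows, was found in Dkk1 at -117. The form CTTTGAT, in 3.729% of all windows, was found in Sp5 at -104.

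Across the 14 libraries the genes did not follow one shared profile. Axin2, Lef1 and Tcf7 stood lower in each of the 6 day 10 libraries than in any of the 8 libraries of days 3 and 5. Lgr5 and Notum were highest in the KO libraries of day 5, and Rnf43 in the control libraries of day 10. The tables of days 3 and 5 and of day 10 were scaled separately, so these orders across them are descriptions.

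**Figure D1:**
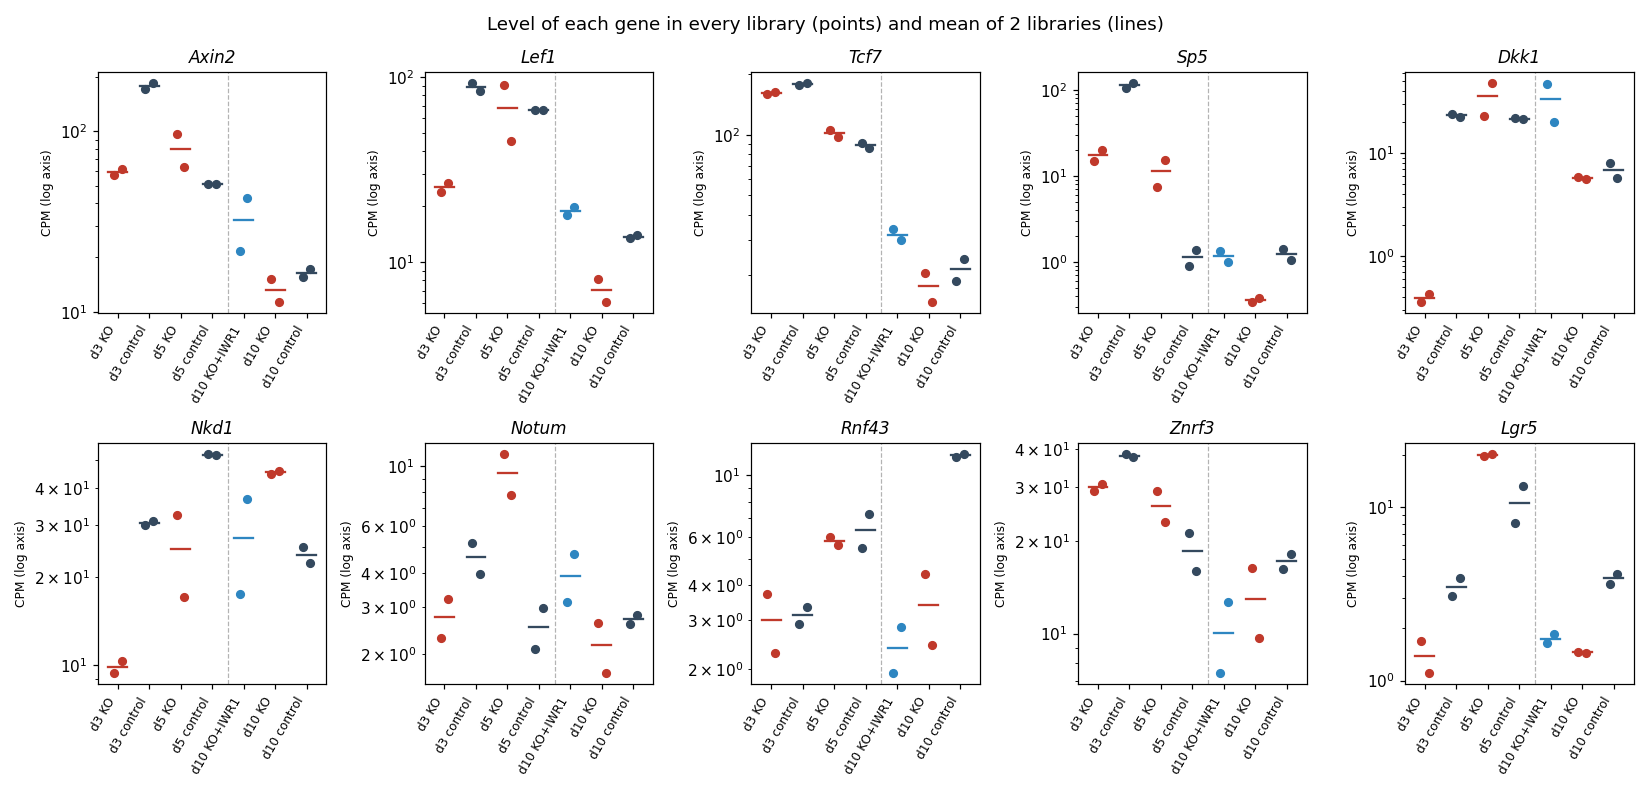
Level of each of the 10 genes in every library, in CPM on a log axis that differs between panels. Points are libraries, lines are the means of 2 libraries, and the dashed line separates the 2 tables, which were scaled separately. Dkk1 stood at 0.354 and 0.423 CPM in KO at day 3, below all its other libraries.

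The day 3 comparison asks how the KO line differs while streak and early mesoderm genes are active. Of the 10 genes, 6 were lower in KO by the test and 0 were higher, against 16.9% of all genes lower and 16% higher. The 6 were Lef1, Sp5, Axin2, Nkd1, Dkk1 and Lgr5, which span transcription factors, inhibitors and a receptor. Their median log2 fold change over all 10 genes was -1.45, against -0.01 over all genes tested. In bulk RNA, fewer cells that express a gene and less RNA of it per cell cannot be told apart.

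Sp5 (chromosome 2, 70474923 to 70477729, plus strand in the mm10 build) encodes a zinc-finger factor induced by Wnt in the streak. It stood at 14.9 and 19.9 CPM in the day 3 KO libraries, against 106 and 120 CPM in control. Both KO libraries were far under both control libraries, a log2 fold change of -2.70 ± 0.29 (adjusted p = 0.00128), or 6.49-fold lower. Lef1 (chromosome 3, 131110471 to 131224356, plus strand), a partner of beta-catenin on DNA and itself a target, was at 24.1 and 26.6 CPM in KO and 93.2 and 83.7 CPM in control. The groups stood well apart and Lef1 fell by 1.80 on the log2 scale (SE 0.35, adjusted p = 0.0148). Tcf7 (chromosome 11, 52252371 to 52283014, minus strand), the related factor TCF1, was nearly level, at 159 and 163 CPM in KO and 176 and 181 CPM in control. Its KO libraries were a little under its control libraries and the log2 fold change of -0.15 ± 0.06 did not pass (adjusted p = 0.0684).

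Axin2 (chromosome 11, 108920349 to 108950783, plus strand) encodes the inducible form of the destruction complex scaffold and is the most used single readout of the pathway. It stood at 57.4 and 61.5 CPM in day 3 KO libraries, against 172 and 186 CPM in control. The gap between the groups was many times the gap within them, and Axin2 was 3.01-fold lower in KO (log2 fold change -1.59 ± 0.18, adjusted p = 0.00116). Nkd1 (chromosome 8, 88521354 to 88594884, plus strand), which binds Dishevelled and limits the signal inside the cell, was at 9.37 and 10.3 CPM in KO and 30.0 and 30.9 CPM in control. Its fall of 3.09-fold was close in size to that of Axin2 (log2 fold change -1.63 ± 0.29, adjusted p = 0.00639).

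Dkk1 (chromosome 19, 30545863 to 30549665, minus strand) encodes a secreted protein that blocks the LRP co-receptors. It was near absent from KO at day 3, with 4 and 5 counts, or 0.354 and 0.423 CPM, against 276 and 255 counts, or 24.3 and 22.5 CPM, in control. Its log2 fold change was -5.87 ± 0.58 (adjusted p = 6.49e-04), the largest among the 10 genes. Notum (chromosome 11, 120653788 to 120661175, minus strand), a secreted enzyme that removes the lipid Wnt proteins need, was at 2.30 and 3.21 CPM in KO and 5.19 and 3.96 CPM in control. Its groups did not overlap but the log2 fold change of -0.73 ± 0.32 did not pass (adjusted p = 0.108).

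Rnf43 (chromosome 11, 87662722 to 87735539, plus strand) and Znrf3 (chromosome 11, 5276324 to 5444847, minus strand) encode membrane ubiquitin ligases that remove Frizzled receptors from the cell surface. Rnf43 was low and overlapped between groups, at 3.71 and 2.28 CPM in KO and 2.91 and 3.35 CPM in control (log2 fold change -0.06 ± 0.31, adjusted p = 0.898). Znrf3 was at 29.3 and 30.8 CPM in KO and 38.6 and 37.7 CPM in control. Its groups did not overlap, and the difference missed the threshold (log2 fold change -0.34 ± 0.14, adjusted p = 0.0942). Lgr5 (chromosome 10, 115450311 to 115587780, minus strand) encodes a receptor for R-spondins, which protect Frizzled receptors from these ligases. Lgr5 was at 1.68 and 1.10 CPM in KO and 3.08 and 3.87 CPM in control at day 3, and the groups did not overlap (log2 fold change -1.32 ± 0.35, adjusted p = 0.0178). Lgr5 overlaps A930009A15Rik on the opposite strand, and whether counting used strand is not settled. The spread of each gene was estimated once over all 8 libraries of days 3 and 5. The day 5 libraries thus enter the day 3 tests. With the compared groups alone fitted by edgeR, Tcf7, Notum and Znrf3 were also called lower in KO at day 3 (adjusted p = 0.00188, 0.0232 and 0.000705). In that fit the adjusted p was 1.23e-21 for Lef1, 9.68e-15 for Nkd1 and 0.00126 for Lgr5. Of the 6 calls at day 3, those of Axin2, Sp5 and Dkk1 held under every alternative tried. That of Lef1 was lost when any 1 of the 4 libraries was left out (adjusted p = 0.0525 to 0.0863), that of Nkd1 without KO library 1 (0.0535), and that of Lgr5 without control library 2 or KO library 2 (0.112 to 0.134).

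Among 92 other genes of the pathway, 82 were tested at day 3, of which 30 were lower in KO and 12 higher, against 16.9% and 16% of all genes. The fall was broadest among 15 other reported Wnt targets, of which 12 fell and 0 rose (median log2 fold change -1.72). Mixl1, a homeobox gene of the streak, was at 10.3 and 9.89 CPM in KO and 422 and 421 CPM in control (log2 fold change -5.38 ± 0.11, adjusted p = 3.78e-09). Msx1, a homeobox gene of mesoderm, was at 3.71 and 4.65 CPM in KO and 67.9 and 73.3 CPM in control (-4.07 ± 0.13, adjusted p = 3.16e-08). Of 14 Wnt ligand genes tested, 7 fell and 4 rose. Wnt3, the ligand that starts the streak in the mouse embryo, was at 24 and 26.1 CPM in KO and 95.1 and 91.9 CPM in control (-1.90 ± 0.12, adjusted p = 3.65e-06). Rspo3, an R-spondin, was at 2.83 and 4.14 CPM in KO and 34 and 33 CPM in control (-3.26 ± 0.18, adjusted p = 1.55e-06). The signal transduction genes were split, with 4 of 14 lower and 3 higher, and their median was -0.07.

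Cell type markers were mostly lower in KO at day 3, but those of endoderm were higher and those of blood overlapped. The 6 endoderm markers summed to 249 and 257 CPM in KO and 174 and 177 CPM in control. The 6 blood markers summed to 6.01 and 7.61 CPM in KO and 6.87 and 5.37 CPM in control. Both lists had 1 or 2 markers at 0 in each library. The summed level of 8 primitive streak and nascent mesoderm markers, none of them at 0, was 249 and 301 CPM in KO and 2533 and 2642 CPM in control at day 3. The summed level of 8 markers of undifferentiated stem cells was 1714 and 1802 CPM in KO and 2104 and 2080 CPM in control, also with none at 0. Mixl1, T and Fgf8 are in both the streak list and the list of other targets. Whether a different share of streak cells accounts for the lower Wnt targets was not tested.

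The day 5 comparison asks whether that difference lasts. By day 5 the direction was mostly the opposite: 6 of the 10 genes were higher in KO at day 5 and 1 was lower, against 21.9% of all genes higher and 21.7% lower. The 6 that rose were Tcf7, Sp5, Axin2, Notum, Znrf3 and Lgr5, and Nkd1 fell. Of the 6 genes that had fallen at day 3, 3 were now higher in KO (Axin2, Sp5 and Lgr5), 1 was again lower (Nkd1) and 2 were not called (Lef1 and Dkk1). The share of all genes that fell at day 3 and rose at day 5 was not counted, so these counts are a description. The median log2 fold change of the 10 genes was 0.57, against 0.01 over all genes tested.

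Sp5 had almost left the control libraries by day 5. It stood at 7.49 and 15.4 CPM in KO, from 83 and 177 counts, and at 0.892 and 1.39 CPM in control, from 9 and 14 counts. KO was 9.99-fold higher (log2 fold change 3.32 ± 0.54, adjusted p = 0.00419). Lef1 was at 91.1 and 44.9 CPM in KO and 66.1 and 66.7 CPM in control, so that the KO libraries lay on either side of control (log2 fold change 0.03 ± 0.33, adjusted p = 0.945). Its sign rests on 1 library: the log2 fold change was -0.57 without KO library 1 and 0.45 without KO library 2. With 1 KO library left, the spread of KO cannot be measured, so only the effect sizes are given. Tcf7 was at 105 and 97.8 CPM in KO and 91.0 and 86.0 CPM in control, a small rise of 0.20 ± 0.06 on the log2 scale (adjusted p = 0.0234).

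Axin2 was at 96.3 and 63.8 CPM in KO at day 5, both above the 50.9 and 51.1 CPM of control (log2 fold change 0.65 ± 0.19, adjusted p = 0.0316). Nkd1 went the other way, at 32.5 and 17.1 CPM in KO and 52.3 and 51.9 CPM in control, 2.10-fold lower (log2 fold change -1.07 ± 0.26, adjusted p = 0.0158). Both genes encode intracellular inhibitors, and at day 5 they stood on opposite sides of control.

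Dkk1, near absent from KO at day 3, was at 23.2 and 48.3 CPM in KO at day 5, against 21.8 and 21.4 CPM in control. Both KO libraries lay above control, the first only just, and the log2 fold change of 0.73 ± 0.32 did not pass (adjusted p = 0.110). Its size rests on 1 library: it was 1.16 without KO library 1 and 0.094 without KO library 2. Notum was at 11.1 and 7.85 CPM in KO and 2.08 and 2.98 CPM in control. Its KO libraries were 3.73-fold higher on average (log2 fold change 1.90 ± 0.31, adjusted p = 0.00113), the clearest rise among the 10 genes by p.

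Rnf43 overlapped between groups again, at 5.96 and 5.58 CPM in KO and 5.45 and 7.25 CPM in control (log2 fold change -0.14 ± 0.28, adjusted p = 0.714). Znrf3, its relative, was at 29.2 and 23.1 CPM in KO and 21.3 and 16 CPM in control, a rise of 0.49 ± 0.15 on the log2 scale (adjusted p = 0.0284). Lgr5 was at 19.6 and 20.2 CPM in KO and 8.03 and 13.1 CPM in control (log2 fold change 0.91 ± 0.24, adjusted p = 0.0129). The calls of Sp5 and Notum held under every alternative tried. The other 5 were each lost under at least 1 of them. DESeq2 ended the calls of Tcf7 (adjusted p = 0.160) and Znrf3 (0.0686), the replicate block that of Axin2 (0.0516), and the fit without the filter on low counts those of Axin2 (0.105) and Nkd1 (0.0503). With the compared groups alone the adjusted p was 0.0740 for Axin2, 0.0850 for Tcf7, 0.0743 for Nkd1 and 0.101 for Znrf3. Without control library 1 the adjusted p was 0.131 for Axin2, 0.0512 for Tcf7, 0.0720 for Nkd1 and 0.107 for Lgr5, whose log2 fold change was then 0.60. Without control library 2 it was 0.124 for Axin2, 0.149 for Tcf7, 0.0660 for Nkd1 and 0.202 for Znrf3, whose log2 fold change was then 0.29. Without KO library 1 it was 0.0722 for Tcf7 and 0.0719 for Znrf3, at 0.31, and the log2 fold change was 0.32 for Axin2 and -1.61 for Nkd1; without KO library 2 that of Nkd1 was -0.69.

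**Figure D2:**
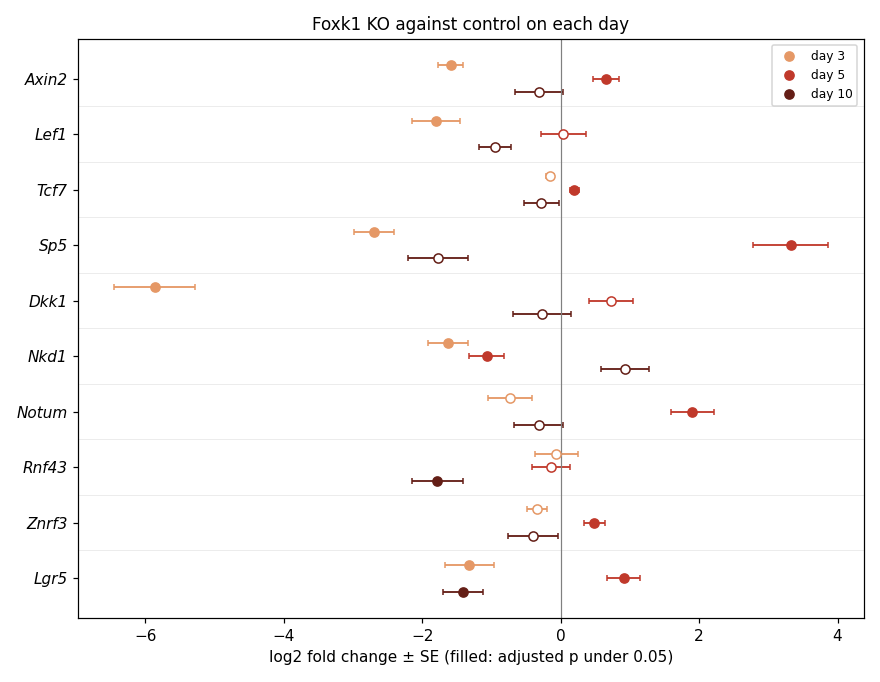
Log2 fold change of Foxk1 KO against control for each gene at days 3, 5 and 10, with bars of 1 SE and filled points where the adjusted p is under 0.05. Points left of 0 are lower in KO. The 3 genes filled on both sides of 0 at days 3 and 5 are Axin2, Sp5 and Lgr5.

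The 2 KO libraries of day 5 differed from each other, and not all in one direction. Dkk1 was 2.08 times and Sp5 2.06 times as high in KO library 2 as in KO library 1. Lef1 was 2.03 times, Nkd1 1.90 times, Axin2 1.51 times and Notum 1.41 times as high in KO library 1 as in KO library 2. The 2 control libraries differed by 1.02 times for Dkk1, 1.56 times for Sp5, 1.01 times for Lef1 and for Nkd1, 1.00 times for Axin2 and 1.43 times for Notum. The gap was wider between the control libraries than between the KO libraries for Notum and for 3 genes more: Lgr5 (1.03 times in KO, 1.63 times in control), Rnf43 (1.07 times in KO, 1.33 times in control) and Znrf3 (1.26 times in KO, 1.33 times in control). Tcf7 was within 1.08 times in KO and 1.06 times in control. The summed streak markers were 179 and 353 CPM in KO libraries 1 and 2 and 42.9 and 67.0 CPM in control, and the stem cell markers 246 and 447 CPM in KO and 59.6 and 65.9 CPM in control. The 6 blood markers summed to 198 and 50.9 CPM in KO and 1239 and 1289 CPM in control, and the 6 fibroblast and mesenchyme markers to 422 and 135 CPM in KO and 1559 and 1280 CPM in control. None of these 4 lists had a marker at 0 at day 5. Of the other lists, the neural (59.3 and 114 CPM in KO libraries 1 and 2) and endoderm markers (135 and 240 CPM) were higher in KO library 2. The endothelium (435 and 173 CPM) and cardiomyocyte markers (70.9 and 51.0 CPM) were higher in KO library 1. Between 2 libraries each list and each gene is higher in 1 of them, so this order links no gene to a cell type. The part of these cells in the differences between genotypes was not tested.

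Of the 82 other pathway genes tested at day 5, 23 were higher in KO and 22 lower, against 21.9% and 21.7% of all genes, so the genes together stood near the background. Of 14 ligand genes, 7 were higher, 1 was lower and the rest were not called. Wnt3 was at 39.5 and 30.4 CPM in KO and 12.8 and 13.3 CPM in control (log2 fold change 1.42 ± 0.13, adjusted p = 4.30e-05). Of 9 nuclear partners of beta-catenin, 6 were lower and 1 was higher. Bcl9, a co-activator that links beta-catenin to Pygopus proteins, was at 74.4 and 87.2 CPM in KO and 131 and 131 CPM in control (-0.70 ± 0.08, adjusted p = 1.56e-04). Of the 15 other reported targets, 6 rose and 3 fell. Mixl1 was at 18.6 and 14.4 CPM in KO and 1.29 and 1.99 CPM in control (3.32 ± 0.20, adjusted p = 3.03e-06), while Msx1 was at 80.5 and 68.7 CPM in KO and 198 and 189 CPM in control (-1.38 ± 0.09, adjusted p = 4.10e-06).

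The change over time was also tested within each line. In KO 6 of the 10 genes were higher at day 5 than at day 3 and 1 was lower, against 28.3% of all genes higher and 25.5% lower. In control 3 were higher and 5 lower, against 30.6% of all genes higher and 30.2% lower. The median log2 fold change of the 10 genes was 1.14 in KO and -0.63 in control, against 0.03 and -0.01 over all genes tested.

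In KO the steepest rise was that of Dkk1 (log2 fold change 6.48 ± 0.56, adjusted p = 1.55e-04), which had 4 and 5 counts at day 3, followed by Lgr5 (3.83 ± 0.30, adjusted p = 1.03e-05). Notum (1.78 ± 0.30), Lef1 (1.42 ± 0.35), Nkd1 (1.33 ± 0.29) and Rnf43 (0.95 ± 0.29) rose too, with adjusted p of 9.89e-04, 0.0202, 0.00858 and 0.0219. Tcf7 fell by 0.66 on the log2 scale (SE 0.06, adjusted p = 1.80e-05). Axin2 (0.43 ± 0.18), Sp5 (-0.60 ± 0.33) and Znrf3 (-0.20 ± 0.15) did not pass, with adjusted p of 0.0915, 0.179 and 0.267. Single libraries decided several of these values. Without day 3 KO library 1 or 2 the adjusted p of Lef1 was 0.0928 or 0.0758, without library 1 that of Nkd1 was 0.0560, and without library 2 that of Rnf43 was 0.167. The Lef1 call also ended without the filter on low counts (0.0549), and that of Rnf43 with DESeq2 (0.0967) and with the compared groups alone (0.0616). Without day 5 KO library 1 the log2 fold change was 0.83 for Lef1, 0.80 for Nkd1 and -0.38 for Znrf3. Axin2 was at 0.10 without day 5 KO library 1 and at 0.67 without day 5 KO library 2. Sp5 was at -0.18 without day 5 KO library 1, at -1.24 without day 5 KO library 2 and at -0.37 without day 3 KO library 2.

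In control the steepest change was the loss of Sp5, 98.1-fold lower at day 5 (log2 fold change -6.62 ± 0.44, adjusted p = 5.23e-05). Axin2 (-1.81 ± 0.18, adjusted p = 2.46e-04), Znrf3 (-1.03 ± 0.15, adjusted p = 2.80e-04), Tcf7 (-1.01 ± 0.06, adjusted p = 1.07e-06) and Notum (-0.85 ± 0.33, adjusted p = 0.0455) fell with it. Lgr5 (1.60 ± 0.28, adjusted p = 7.99e-04), Rnf43 (1.02 ± 0.29, adjusted p = 0.0133) and Nkd1 (0.77 ± 0.25, adjusted p = 0.0354) rose. Lef1 (-0.41 ± 0.32, adjusted p = 0.316) and Dkk1 (-0.12 ± 0.32, adjusted p = 0.779) did not pass. Lef1 stood lower at day 5 in both libraries, at 66.1 and 66.7 CPM against 93.2 and 83.7 CPM at day 3. It was called lower in 1 of 9 alternatives. The spread in these tests was shared with the KO libraries. Leaving out any 1 of control's 4 libraries ended the calls of Nkd1 and Notum, with adjusted p of up to 0.141 and 0.234, and leaving out either day 3 library or day 5 library 2 ended that of Rnf43 (up to 0.103). DESeq2 also ended the calls of Notum (0.131) and Rnf43 (0.0539), the replicate block that of Notum (0.0603), and the fit without the filter on low counts that of Nkd1 (0.0972).

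**Figure D3:**
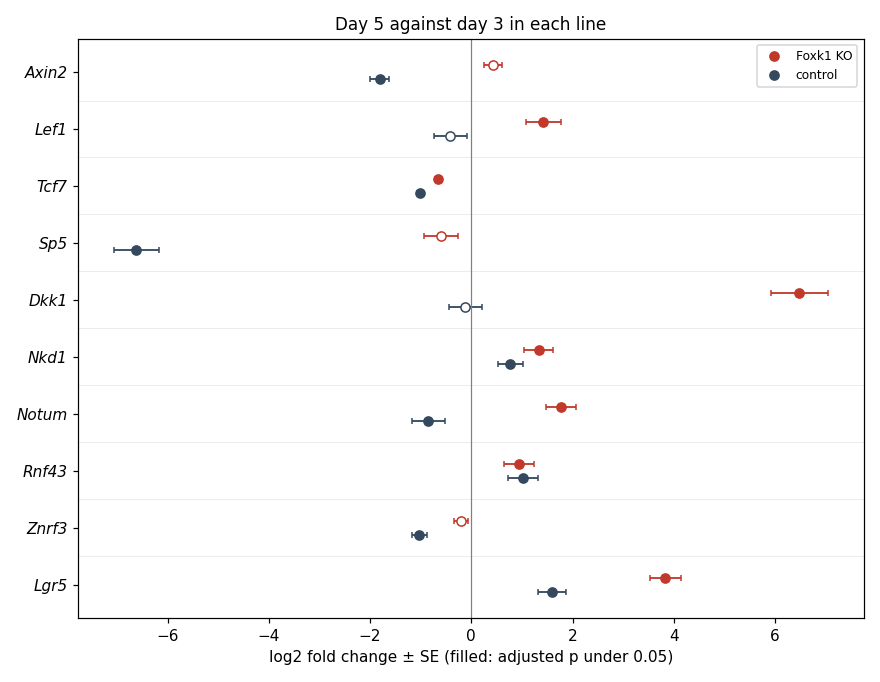
Log2 fold change of day 5 against day 3 for each gene in Foxk1 KO and in control, with bars of 1 SE and filled points where the adjusted p is under 0.05. Points right of 0 are higher at day 5. The lines stand farthest apart for Dkk1 (6.48 in KO, -0.12 in control) and Sp5 (-0.60 in KO, -6.62 in control).

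Whether the KO effect differed between day 5 and day 3 was tested as an interaction, on the same 8 libraries as the comparisons above. For 8 of the 10 genes the KO effect was more positive at day 5 than at day 3 and for 0 it was more negative, against 13.4% and 10.8% of all genes. The median difference was 2.03 on the log2 scale, against 0.03 over all genes tested. It was 6.60 ± 0.69 for Dkk1 (adjusted p = 0.00112), 6.02 ± 0.59 for Sp5 (adjusted p = 0.00118), 2.63 ± 0.45 for Notum (adjusted p = 0.00271), 2.24 ± 0.26 for Axin2 (adjusted p = 0.00176) and 2.23 ± 0.42 for Lgr5 (adjusted p = 0.00487), and these 5 held under every alternative tried. It was smaller for Lef1 (1.84 ± 0.47, adjusted p = 0.0475), Znrf3 (0.83 ± 0.21, adjusted p = 0.0187) and Tcf7 (0.35 ± 0.08, adjusted p = 0.0137), and each of these 3 calls was lost under several alternatives. The Lef1 call ended without the filter on low counts (adjusted p = 0.113) and with the replicate block (0.0582), and that of Tcf7 with DESeq2 (0.130). The Lef1 call also ended when 1 of the 4 day 3 libraries or 1 day 5 control library was left out (adjusted p = 0.104 to 0.141), that of Znrf3 without any day 3 library or day 5 control library 2 (0.0647 to 0.0836), and that of Tcf7 without day 3 control library 2, either day 3 KO library or day 5 control library 2 (0.0511 to 0.0726). For Nkd1 (0.56 ± 0.39, adjusted p = 0.352) and Rnf43 (-0.07 ± 0.42, adjusted p = 0.922) the difference between the days did not pass. That of Nkd1 was 0.020 without day 5 KO library 1 and 0.92 without day 5 KO library 2. Among the other pathway genes the interaction was positive for 9 of 14 ligand genes and 10 of 15 other reported targets, and negative for 0 of either.

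Levels of different genes were compared per kilobase of exon, since CPM grows with transcript length. On that scale Tcf7 stood highest of the 10 genes in both lines at days 3 and 5. At day 3 it averaged 61.3 ± 1.17 CPM per kb in KO and 68.1 ± 1.31 CPM per kb in control (SD, n = 2 libraries each). In control it was followed at day 3 by Sp5 (53.9 ± 4.95), Axin2 (32.5 ± 1.77), Lef1 (10.1 ± 0.757) and Dkk1 (9.63 ± 0.538 CPM per kb), where the ranges of Lef1 and Dkk1 overlapped. In KO the order after Tcf7 was Axin2 (10.8 ± 0.53), Sp5 (8.29 ± 1.71) and Znrf3 (3.81 ± 0.141 CPM per kb), and Dkk1 (0.16 ± 0.02) and Lgr5 (0.135 ± 0.0401 CPM per kb) came last with overlapping ranges. Every other pair of neighbours at day 3 stood apart.

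At day 5 the level per kilobase of Dkk1 was the second of the 10 in KO (14.7 ± 7.32), overlapping Axin2 (14.5 ± 4.18 CPM per kb). Lef1, Sp5, Nkd1, Notum and Znrf3 followed in KO with each neighbour overlapping the next. In control the order after Tcf7 (33.7 ± 1.33) was Nkd1 (11.4 ± 0.0718), Axin2 (9.26 ± 0.0167), Dkk1 (8.89 ± 0.129) and Lef1 (7.55 ± 0.0456 CPM per kb), each apart from the next, and Sp5 was lowest (0.544 ± 0.168 CPM per kb).

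**Figure D4:**
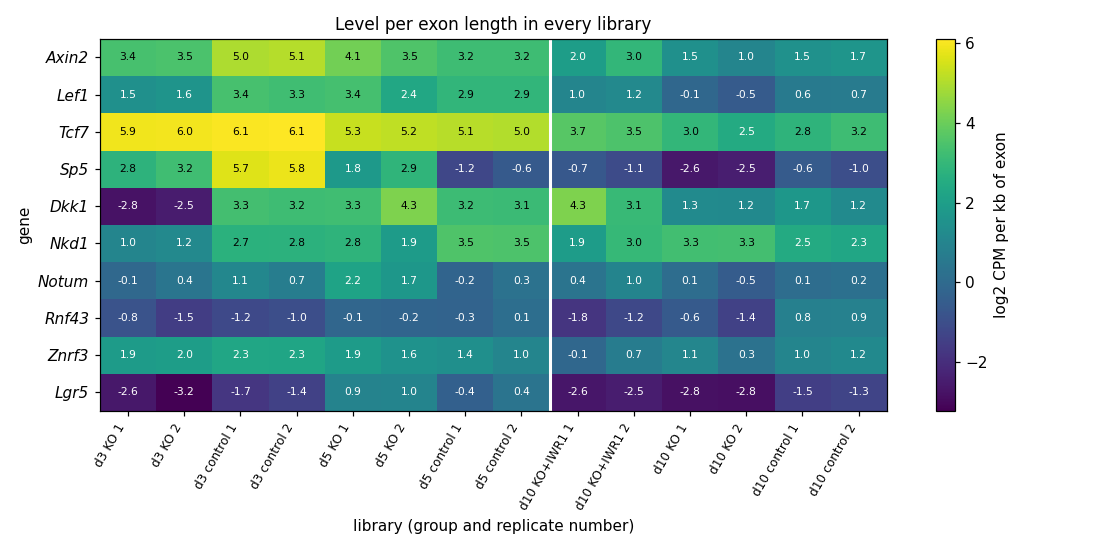
Level of each gene in every library as log2 CPM per kilobase of merged exon, with the value in each cell; the white line separates the 2 tables, which were scaled separately. Tcf7 is the brightest row through days 3 and 5, and values run between -3.22 and 6.11.

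The genes whose profile over the 8 libraries of days 3 and 5 lay closest to that of Axin2 were Hes1, a target of Notch signalling, Inpp5d, Pcx and Chst2. Their root mean square differences from Axin2 were 0.209, 0.219, 0.223 and 0.242 on the log2 scale, among 10611 genes with a median of 0.764. Of the other 9 Wnt genes, Znrf3 was closest, at 0.461 and rank 95, followed by Tcf7 at 0.545 and rank 328. Over the 6 libraries of day 10 the nearest were Csrnp3 (0.141), Zfp423 (0.158), Dtx4 (0.160) and Col23a1 (0.160), among 11293 genes with a median of 0.665. There Notum was closest of the Wnt genes, at 0.247 and rank 18, and Lef1 was at 0.352 and rank 141.

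The first day 10 comparison sets the libraries labelled Foxk1 KO against control, at a stage when control embryoid bodies held cardiomyocyte RNA. Of the 10 genes, 2 were lower in KO and 0 higher, against 3.35% of all genes lower and 1.92% higher. They were Rnf43 and Lgr5, whose proteins act in opposite ways on how long Frizzled receptors stay at the surface. The median log2 fold change of the 10 genes was -0.36, against 0.02 over all genes tested.

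Rnf43 stood at 4.39 and 2.43 CPM in the libraries labelled KO, well under the 11.6 and 11.9 CPM of control (log2 fold change -1.78 ± 0.37, adjusted p = 0.0447). Lgr5 was at 1.46 and 1.45 CPM in KO and 3.62 and 4.13 CPM in control (-1.41 ± 0.30, adjusted p = 0.0455). Both groups of libraries were tight for Lgr5 and did not overlap. Both calls sit close to the threshold: that of Lgr5 was lost without any 1 of the 4 libraries, with adjusted p up to 0.309, and that of Rnf43 without control library 1, control library 2 or KO library 2, with adjusted p of 0.218, 0.208 and 0.151. With replicate numbers as a block, the adjusted p was 0.0722 for Rnf43 and 0.101 for Lgr5, and no gene of the 10 was called.

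Sp5 was at 0.340 and 0.383 CPM in KO and 1.42 and 1.06 CPM in control, apart but not called (log2 fold change -1.78 ± 0.43, adjusted p = 0.0690). Lef1 was at 8.10 and 6.07 CPM in KO and 13.5 and 13.9 CPM in control, again apart but not called (-0.95 ± 0.23, adjusted p = 0.0717). DESeq2 called both, with adjusted p of 0.0327 for Sp5 and 0.00722 for Lef1, as did the fit without the filter on low counts (0.0461 and 0.0433). Nkd1 had the largest difference towards higher levels in KO, at 44.9 and 45.7 CPM in KO and 25.3 and 22.4 CPM in control (0.93 ± 0.35, adjusted p = 0.200). It was called higher when edgeR was fitted to the compared groups alone (adjusted p = 0.0406).

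The remaining 5 genes did not pass, which does not show that their levels were equal. Axin2 was at 15.1 and 11.3 CPM in KO and 15.5 and 17.3 CPM in control (log2 fold change -0.31 ± 0.35, adjusted p = 0.728). Tcf7, Dkk1, Notum and Znrf3 overlapped between the groups, with log2 fold changes of -0.28, -0.27, -0.32 and -0.40 and adjusted p of 0.643, 0.818, 0.728 and 0.642. Without KO library 1 the log2 fold changes of Axin2, Tcf7, Dkk1, Notum and Znrf3 were -0.58, -0.58, -0.32, -0.71 and -0.88. Without KO library 2 they were -0.11, -0.06, -0.25, -0.04 and -0.07. Of 88 other pathway genes tested at day 10, 7 were higher in KO and 5 lower, against 1.92% and 3.35% of all genes. Ccnd1, the cyclin D1 gene, was at 39.0 and 31.7 CPM in KO and 116 and 112 CPM in control (-1.69 ± 0.20, adjusted p = 0.0105).

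The second day 10 comparison sets KO embryoid bodies treated with IWR1 against untreated KO and so asks what the Axin stabiliser changed. By the test 3 of the 10 genes were higher with IWR1 and 0 lower, against 5.77% of all genes higher and 8.08% lower. The 3 were Lef1, Sp5 and Dkk1. The median log2 fold change was 0.86, against -0.01 over all genes tested.

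Dkk1 stood at 47.6 and 20.1 CPM in the KO libraries with IWR1, against 5.80 and 5.66 CPM in untreated KO. The treated libraries differed from each other by 2.37 times, and both were well above KO (log2 fold change 2.56 ± 0.44, adjusted p = 0.0187). Lef1 was at 18 and 19.8 CPM with IWR1 and 8.10 and 6.07 CPM in KO, with close values within each group (1.41 ± 0.24, adjusted p = 0.0176). Sp5 was at 1.32 and 0.992 CPM with IWR1, from 64 and 36 counts, and 0.340 and 0.383 CPM in KO, from 14 and 14 counts (1.68 ± 0.43, adjusted p = 0.0477).

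Axin2, whose protein IWR1 stabilises, was at 21.6 and 42.7 CPM with IWR1 and 15.1 and 11.3 CPM in KO. Both treated libraries lay above both untreated ones, and the log2 fold change of 1.28 ± 0.35 missed the threshold (adjusted p = 0.0583). Tcf7 was at 33.9 and 29.8 CPM with IWR1 and 20.5 and 14.7 CPM in KO, also apart and also not called (0.86 ± 0.25, adjusted p = 0.0666). DESeq2 called both, with adjusted p of 0.00504 for Axin2 and 0.0191 for Tcf7, and with the replicate block these were 0.102 and 0.130. Nkd1 alone lay under KO in both treated libraries, at 17.4 and 36.7 CPM against 44.9 and 45.7 CPM in KO (-0.74 ± 0.35, adjusted p = 0.182). Single treated libraries moved both values. Axin2 was at 1.69 without IWR1 library 1 and at 0.71 without IWR1 library 2. Nkd1 was at -0.30 without IWR1 library 1 and at -1.38 without IWR1 library 2. Notum, Rnf43, Znrf3 and Lgr5 had log2 fold changes of 0.86, -0.52, -0.38 and 0.26 and adjusted p of 0.148, 0.351, 0.491 and 0.563.

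None of the 3 calls, those of Lef1, Sp5 and Dkk1, held under every alternative tried. Those of Dkk1 and Sp5 were lost without KO library 1 (adjusted p = 0.0538 and 0.160), those of Lef1, Sp5 and Dkk1 without KO library 2 (0.0550, 0.112 and 0.0550), and those of Lef1 and Sp5 without IWR1 library 1 (0.0538 and 0.170). That of Sp5 was also lost with the replicate block (0.0961) and with the compared groups alone (0.102).

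**Figure D5:**
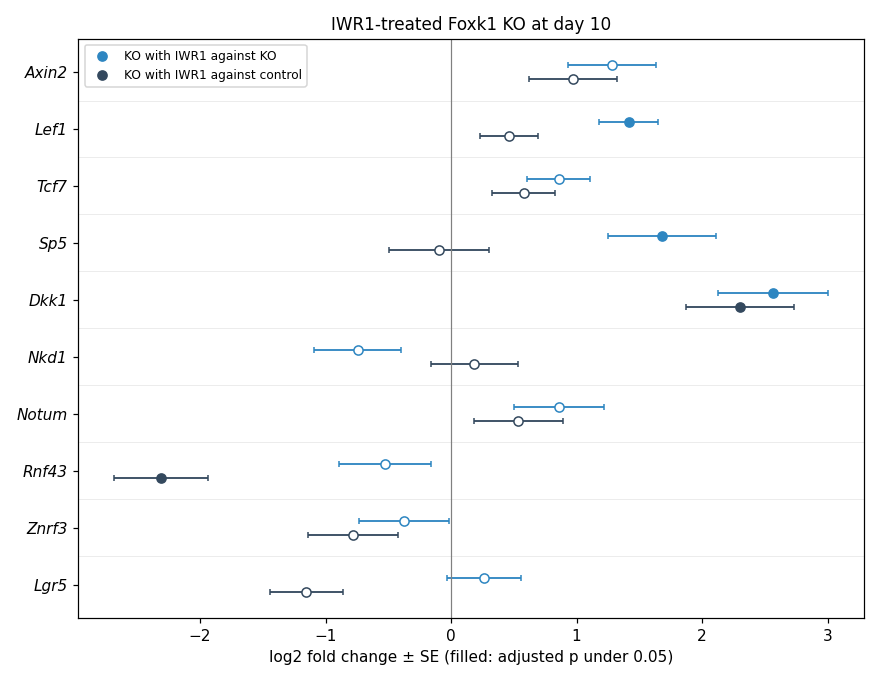
Log2 fold change of Foxk1 KO with IWR1 against Foxk1 KO and against control at day 10, with bars of 1 SE and filled points where the adjusted p is under 0.05. Points right of 0 are higher with IWR1. Dkk1 lies at 2.56 and 2.30 in the 2 comparisons, which share the treated libraries.

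Other pathway genes stood higher with IWR1 as well. Of the 88 tested, 23 were higher than in KO and 9 lower, against 5.77% and 8.08% of all genes. Of 14 other reported targets, 7 rose and 1 fell. Ccnd1 was at 215 and 225 CPM with IWR1 and 39.0 and 31.7 CPM in KO (log2 fold change 2.64 ± 0.20, adjusted p = 0.00538), and Msx2 at 25.0 and 23.2 CPM with IWR1 and 3.01 and 3.83 CPM in KO (2.82 ± 0.25, adjusted p = 0.00675). Of 18 ligand genes, 7 rose and 2 fell. Wnt1, a ligand of the dorsal neural tube and midbrain, was at 19.1 and 39.1 CPM with IWR1 and 0.218 and 0.383 CPM in KO (6.60 ± 0.54, adjusted p = 0.00573), and Wnt2 at 17.9 and 16.3 CPM with IWR1 and 70.0 and 90.2 CPM in KO (-2.23 ± 0.25, adjusted p = 0.00867). Apcdd1, a membrane inhibitor, was at 29.5 and 32.8 CPM with IWR1 and 11 and 9.40 CPM in KO (1.61 ± 0.24, adjusted p = 0.0143).

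Marker RNA of several cell types differed widely between the same libraries, and that of others less. The stem cell markers summed to 204 and 114 CPM with IWR1, 181 and 147 CPM in KO and 151 and 175 CPM in control. In the same order the blood markers summed to 1393 and 839, 1683 and 1794, and 1334 and 759 CPM. The endothelium markers summed to 143 and 139, 297 and 190, and 211 and 240 CPM. The 6 neural markers summed to 206 and 253 CPM with IWR1, 16.8 and 18.3 CPM in KO and 41.8 and 38.3 CPM in control. The 6 fibroblast and mesenchyme markers, which feeder cells could also give, summed to 1231 and 3309 CPM with IWR1, 25214 and 18630 CPM in KO and 7449 and 8133 CPM in control. The 8 cardiomyocyte markers summed to 481 and 372 CPM with IWR1, 157 and 347 CPM in KO and 4600 and 3927 CPM in control, and the 6 endoderm markers to 125 and 160 CPM with IWR1, 1318 and 574 CPM in KO and 4193 and 3384 CPM in control. The streak markers were low throughout, at 46.6 and 24.3 CPM with IWR1, 6.31 and 10.6 CPM in KO and 4.94 and 8.50 CPM in control. No marker of any list was at 0 in a day 10 library. The part of these cells in the day 10 differences was not tested.

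Against control, the treated KO embryoid bodies differed in 1 of the 10 genes that was higher and 1 that was lower, against 2.99% of all genes higher and 6.13% lower. These were Dkk1 and Rnf43, a secreted inhibitor and a membrane ligase. Dkk1 was at 47.6 and 20.1 CPM with IWR1 and 8.02 and 5.75 CPM in control (log2 fold change 2.30 ± 0.43, adjusted p = 0.0267). Rnf43 was at 1.93 and 2.84 CPM with IWR1 and 11.6 and 11.9 CPM in control, 4.96-fold lower (-2.31 ± 0.37, adjusted p = 0.0185). Both calls were lost without control library 1, control library 2 or IWR1 library 1, with adjusted p of 0.0589 to 0.154 for Dkk1 and 0.0816 to 0.0879 for Rnf43.

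Lgr5 was at 1.64 and 1.85 CPM with IWR1 and 3.62 and 4.13 CPM in control, apart but not called (log2 fold change -1.15 ± 0.29, adjusted p = 0.0565). DESeq2 called Lgr5 lower (adjusted p = 0.0186), and edgeR without the filter on low counts called Axin2 higher (adjusted p = 0.0388). Axin2 (0.97 ± 0.35, adjusted p = 0.122), Tcf7 (0.58 ± 0.25, adjusted p = 0.169), Notum (0.54 ± 0.36, adjusted p = 0.326) and Lef1 (0.46 ± 0.23, adjusted p = 0.214) stood above control in both treated libraries and did not pass. Znrf3 stood below (-0.78 ± 0.36, adjusted p = 0.190). Sp5 (-0.10 ± 0.40, adjusted p = 0.881) and Nkd1 (0.18 ± 0.35, adjusted p = 0.729) overlapped with control. The 3 comparisons of day 10 share libraries, so their results are not independent.

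Per kilobase of exon, the order of the 10 genes at day 10 also differed between groups. Dkk1 (13.9 ± 8.00) and Tcf7 (12.1 ± 1.11 CPM per kb) came first with IWR1 and overlapped. Nkd1 came first in the libraries labelled KO (9.94 ± 0.116), ahead of Tcf7 (6.70 ± 1.56 CPM per kb), and Tcf7 came first in control (8.13 ± 1.44), ahead of Nkd1 (5.22 ± 0.451 CPM per kb). Lgr5 was lowest in each of the 3 groups, at 0.170 ± 0.0145 with IWR1, 0.141 ± 0.000465 in KO and 0.377 ± 0.0355 CPM per kb in control (SD, n = 2 libraries each).

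By position, 5 of the 10 genes lie on chromosome 11: Axin2, Tcf7, Notum, Rnf43 and Znrf3. The 1139 genes of that chromosome tested at days 3 and 5 had a median log2 fold change of -0.01 at day 3 and 0.05 at day 5 between KO and control.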

How the data were processed

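The deposited values are estimated counts per gene, whole numbers in 2 tables, made by the authors with kallisto 0.46.2 and the mm10 build, per the submitters' processing notes. How transcripts were summed to genes is not stated there. Per the labels' protocols a TruSeq RNA or a stranded mRNA kit was used, so genes on opposite strands may share reads. All 14 columns were matched to samples by name and none was left out. Symbols and positions came from GENCODE vM21; 35968 identifiers matched and 79 did not.

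Each table was fitted on its own in R 4.3.3 with edgeR 4.0.16, and no fit spans them. Low counts were removed with filterByExpr, library sizes were scaled by TMM, and 8 contrasts were put through the quasi-likelihood F-test with robust fitting (two-sided), adjusted by the Benjamini-Hochberg method with a threshold of 0.05. The fits held 14430 genes and 4 residual degrees of freedom at days 3 and 5, and 17022 genes and 3 at day 10, with common biological coefficients of variation of 0.0915 and 0.248. SE is the size of the log2 fold change over the square root of F. The script was tested on simulated data. Alternatives were DESeq2 1.42.0, RLE size factors, no filter on low counts, a replicate block, a fit of the compared groups only, and each library left out in turn. A lone remaining library is then assumed to vary like the others.

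Named genes are the 10 Wnt genes, up to 2 members of each pathway list per comparison with the smallest p, and the 4 genes nearest Axin2 in log2(CPM + 0.5) profiles among genes with a mean of at least 5 CPM. The members, the 92 pathway genes and the marker lists were chosen with earlier results of these data known, so no list was tested as a set. Libraries of a group differed by more than counting noise, with 1.87 to 160 times the expected chi-square, so none was taken as a copy of another. Promoter windows are from RefSeq, and floors cover counting error only.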

Additional observations from a re-analysis of the deposited data

Results flagged for a closer look

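Of the 10 Wnt genes, 8 differed between days in how KO compared with control, by the interaction test of edgeR with Benjamini-Hochberg adjustment over all genes. All 8 differences were positive, against 13.4% of all genes positive and 10.8% negative. The calls of Dkk1, Sp5, Notum, Axin2 and Lgr5 held under every alternative tried, and those of Lef1, Znrf3 and Tcf7 did not. The values are the log2 KO effect of day 5 minus that of day 3. The difference was 6.60 for Dkk1, whose KO effect was 0.73 at day 5 and -5.87 at day 3. It was 6.02 for Sp5, with 3.32 at day 5 and -2.70 at day 3. It was 2.63 for Notum, with 1.90 at day 5 and -0.73 at day 3. It was 2.24 for Axin2, with 0.65 at day 5 and -1.59 at day 3. It was 2.23 for Lgr5, with 0.91 at day 5 and -1.32 at day 3. The smaller differences were 1.84 for Lef1, 0.83 for Znrf3 and 0.35 for Tcf7.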

How the results depend on the processing

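Of the calls on single genes, RLE size factors changed none. For the number of the 10 genes called, the 6 of KO against control at day 3 (4741 over all genes) became 9 when the compared groups alone were fitted (7334). That number and the 7 of day 5 against day 3 in KO stayed within 1.5 times under every alternative tried. Elsewhere calls over all genes mostly moved with those of the 10. The 7 of KO against control at day 5 (6281 over all genes) became 3 when the compared groups alone were fitted (4354), and 3 to 8 with 1 library left out (4030 to 7565). The 2 of KO against control at day 10 (897 over all genes) became 4 with DESeq2 (2023), 4 without the filter on low counts (1737), 0 with the replicate block (611), and 0 to 1 with 1 library left out (63 to 838). The 3 of IWR1 against KO (2358) became 5 with DESeq2 (4308), 5 without the filter (3697), and 0 to 4 with 1 library left out (548 to 3056). With 1 library left out, the 2 of IWR1 against control (1553) became 0 to 2 (280 to 2145), the 8 of day 5 against day 3 in control (8780) 5 to 6 (7005 to 7439), and the 8 of the interaction (3496) 5 to 9 (2049 to 5621). The cause was not tested.

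Signs turned in 12 fits of single genes, none of them a gene called in that comparison. Lef1 at day 5 was -0.0034 on the log2 scale with the replicate block, and -0.57 to 0.45 with 1 library left out. With 1 library left out, Rnf43 ranged between -0.45 and 0.25 at day 3, -0.33 and 0.082 at day 5 and -0.38 and 0.31 in the interaction. Znrf3 ranged between -0.81 and 0.082 for IWR1 against KO. For IWR1 against control Sp5 ranged between -0.32 and 0.13, and Nkd1 between -0.45 and 0.63.

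Whether equal replicate numbers mark paired samples was not settled. Deviations from the group means correlated at -0.0218 to 0.0501 between groups at days 3 and 5. At day 10 they correlated at 0.242 between control and KO with IWR1. Those of KO correlated at -0.297 with control and at -0.322 with KO with IWR1. The replicate block lost 6 calls and gained 1.

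The main limits are 2 libraries a group, 1 line of each genotype and the spread between the KO libraries of days 5 and 10. A missed threshold at this size does not show that levels were equal. Sp5, Rnf43, Notum and Lgr5 were low in several groups, where counting noise is largest.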

Other observations

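Outside the 10 genes, pathway genes also separated the treated KO embryoid bodies of day 10 from control: of 88 tested by edgeR's quasi-likelihood test, 18 were higher with IWR1 and 2 lower, against 2.99% and 6.13% of all genes. Of 18 ligand genes 6 rose and 1 fell. Wnt3 was at 4.86 and 8.08 CPM with IWR1 and 0.443 and 0.741 CPM in control (log2 fold change 3.45 ± 0.45, adjusted p = 0.00916). Of 13 other inhibitor genes 4 rose and 0 fell. Sfrp2, a secreted Frizzled-related protein, was at 68.9 and 107 CPM with IWR1 and 12.7 and 14.4 CPM in control (2.70 ± 0.29, adjusted p = 0.00614), and its relative Frzb at 40.4 and 32.7 CPM with IWR1 and 9.54 and 11.5 CPM in control (1.80 ± 0.25, adjusted p = 0.0116). Fzd10, a Frizzled receptor, was at 32.3 and 44.2 CPM with IWR1 and 6.74 and 9.03 CPM in control (2.28 ± 0.28, adjusted p = 0.00768).

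Of 12 inhibitor genes outside the 10 tested at day 3, 1 fell and 2 rose in KO, against 16.9% and 16% of all genes. Frzb was at 2.21 and 3.63 CPM in KO and 94.4 and 95.3 CPM in control (log2 fold change -5.01 ± 0.96, adjusted p = 0.0191). Kremen2, a receptor for Dkk proteins, was at 6.90 and 6.93 CPM in KO and 2.38 and 2.20 CPM in control (1.59 ± 0.38, adjusted p = 0.0107).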
